A study of Xenopus laevis with 5 samples.

Results

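Uroplakins are membrane proteins that cover the surface of the urinary tract lining and, in frogs, of the egg. They were followed here in testes of the African clawed frog, Xenopus laevis, through every array probe whose RefSeq accession belongs to a gene with a symbol starting in upk. The rule found 8 probes for 3 genes, out of 43653 gene probes, of which 16032 had a symbol and stood for 8265 genes. The probes belonged to upk3a.L, upk1b.S, upk1a.S and upk1a.L, where L and S mark the long and short chromosome copies that this tetraploid frog carries of many genes. The members were chosen because earlier results on these arrays had them low after simazine, so their own differences are described below without a test.

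The tested animals were males kept for 90 days in water with 100 µg/L of simazine, a chlorotriazine herbicide, from Nieuwkoop-Faber stage 46, a feeding tadpole stage (3 testes). The control animals were kept in the same way at 0 µg/L (2 testes). The question was which genes the herbicide changes in developing males. Whether each testis came from a different animal is not stated, so spreads and p-values refer to these samples and may in part be technical. Each RNA sample went to 1 one-colour Agilent array, and 5 arrays set the limit of precision here.

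Uroplakins 1a and 1b are tetraspanins, a family of proteins that cross the membrane several times, while uroplakins 2 and 3a cross it once. In mammals each tetraspanin leaves the endoplasmic reticulum with a partner, uroplakin 1a with uroplakin 2 and uroplakin 1b with uroplakin 3a, and the pairs build the plaques of the bladder surface. In Xenopus eggs, uroplakin 3a sits with uroplakin 1b in lipid rafts of the egg membrane, and at fertilisation its outer part is cut by sperm protease and its inner tail is phosphorylated by the kinase Src.

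Over the arrays, 69.1% to 85.1% of gene spots were well above background. The headers record 2 scans, called slide 1 (simazine 2 and control 1) and slide 2 (simazine 1, simazine 3 and control 2) here. This grouping rests on the scan identifier alone. Spots marked as non-uniform or outlying made up 42.6% of simazine 2 and 44.0% of control 1, and 5.78% to 9.999% of the other arrays. Areas of local distortion, where neighbouring spots deviated together by more than 0.5 (log2) on at least 1 array, held 25.55% of the spots. Testis is the tissue given by the labels. On each array at least 11 of 12 Sertoli and Leydig cell genes and 10 of 10 sperm genes were well above background. The same held for 26 or 27 of 27 oocyte genes, so these counts do not single out testis.

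All 8 uroplakin probes read lower in the simazine testes, and the groups did not overlap for any of them. The differences (simazine minus control, log2) ran from -5.42 to -1.57 with a median of -3.98. The median was -2.75 over the 5 probes outside areas of local distortion and -4.31 over the 3 probes within them. Among the 26995 probes of the fit over all probes, 6.85% had all simazine arrays below both controls, and 2.57% did so with a difference of -1 or lower. All 16 control values were well above background, while 7 of the 24 simazine values were not. In whole tissue, fewer cells of a type and less RNA per cell cannot be told apart.

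**Figure D1:**
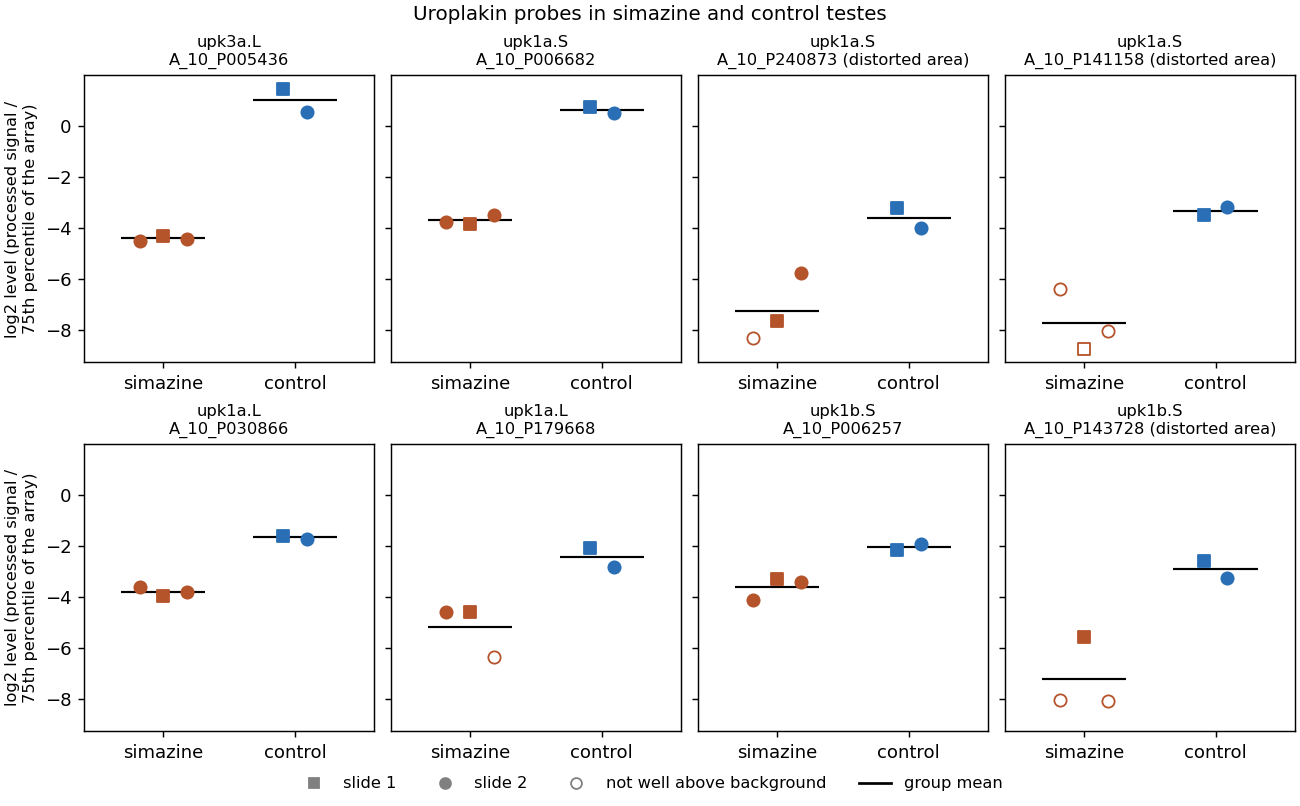
Level of each uroplakin probe on each array (log2 of processed signal over the array's 75th percentile), simazine left of control; squares are slide 1, circles slide 2, open symbols are values not well above background, and bars are group means (n = 3 and 2). In every panel the 3 simazine arrays lie below both control arrays, and the upk3a.L panel has the widest gap between groups.

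The single-pass uroplakin, upk3a.L, had the largest difference of the 8 probes. Its probe read 109, 248 and 73.5 scanner units on simazine 1, 2 and 3, against 18645 and 3505 units on control 1 and 2. The spots themselves were faint but visible, with median brightness of 134 to 303.5 on the simazine arrays, against 20009 and 4115 on control 1 and 2, where the local background was 20 to 23.5 throughout.

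Set against each array's 75th percentile, upk3a.L stood at -4.50, -4.30 and -4.41 (log2) on simazine 1, 2 and 3, against 1.48 and 0.56 on control 1 and 2. The simazine testes were thus close to each other, and the spread lay between the controls, which differed by 0.92. The group means were -4.40 ± 0.101 in simazine testes (SD, n = 3) and 1.02 ± 0.650 in control testes (SD, n = 2). The level was 42.9-fold lower in simazine testes (log2 -5.42, SE 0.351 from the spread within groups). The difference was -5.78 within slide 1 and -5.02 within slide 2. Local deviation at this spot reached 0.254 at most, and taking it off gave -5.56.

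Its tetraspanin partner, upk1b.S, differed by less on its brighter probe. That probe, A_10_P006257, read 141, 502 and 146 units on simazine 1, 2 and 3, against 1493 and 631 units on control 1 and 2. In levels this was -4.13, -3.28 and -3.43 on simazine 1, 2 and 3, against -2.16 and -1.91 on control 1 and 2. Simazine 2 was the highest of its group here, and the gap between the groups was 1.12.

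The mean level of this probe was -3.61 ± 0.456 in simazine testes (SD, n = 3) and -2.04 ± 0.177 in control testes (SD, n = 2), which is 2.98-fold lower (log2 -1.57, SE 0.353). Within slide 1 the difference was -1.12 and within slide 2 it was -1.87. The other probe, A_10_P143728, gave -4.31 (SE 1.10), with levels of -8.03, -5.56 and -8.10 on simazine 1, 2 and 3, against -2.60 and -3.24 on control 1 and 2. Only simazine 2 was well above background for it among the treated testes. It lies in a distorted area, where the local deviation averaged -0.23 on the simazine arrays and 1.25 on the control arrays. With that taken off, its difference was -2.84. Both upk1b.S probes were lower in simazine testes, and they do not fix the size of the difference.

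Of the upk1a copies, the tetraspanin that pairs with uroplakin 2 in mammals, upk1a.S had the brightest probe. A_10_P006682 read 184, 344 and 139 units on simazine 1, 2 and 3, against 11402 and 3411 units on control 1 and 2. No array marked this spot, and its levels were -3.75, -3.83 and -3.49 on simazine 1, 2 and 3, against 0.77 and 0.52 on control 1 and 2. Its spread within groups was small (pooled SD 0.175), against 0.384 for upk3a.L and 0.386 for the brighter upk1b.S probe.

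The mean level of A_10_P006682 was -3.69 ± 0.175 in simazine testes (SD, n = 3) and 0.64 ± 0.176 in control testes (SD, n = 2), 20.1-fold lower (log2 -4.33, SE 0.160). It was -4.60 within slide 1 and -4.14 within slide 2. The other probes of upk1a.S were dim and lie in distorted areas. A_10_P240873 gave -3.65 (SE 1.03), and -3.81 with the local deviation taken off. A_10_P141158 gave -4.40 (SE 0.921), and -2.76 with the local deviation taken off. None of its 3 simazine values was well above background. With dim values below the lowest signal well above background on their array raised to that signal, its level was 15.4-fold lower in simazine testes. The simazine 1 value already lay above that signal and was not raised, so 15.4-fold is not a lower bound. This value also makes no allowance for the local deviation.

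The other copy, upk1a.L, was lower by less on both of its probes in the main values. A_10_P030866 stood at -3.63, -3.95 and -3.82 on simazine 1, 2 and 3, against -1.60 and -1.74 on control 1 and 2. Its difference was -2.13 (SE 0.132), or 4.37-fold lower in simazine testes. A_10_P179668 stood at -4.61, -4.61 and -6.37 on simazine 1, 2 and 3, against -2.07 and -2.81 on control 1 and 2, a difference of -2.75 (SE 0.804). Simazine 3 was not well above background for this probe. Neither probe lies in a distorted area. The difference of the brightest upk1a.S probe was thus more negative than those of both upk1a.L probes, which was not tested. Of the dim upk1a.S probes, A_10_P240873 lost this order with normexp background correction, and A_10_P141158 came close to the upk1a.L probes. With the local deviation taken off, A_10_P141158 was at -2.76 and A_10_P179668 at -2.75, nearly level. With normexp background correction, A_10_P240873 and A_10_P141158 gave -1.28 and -1.89, against -1.87 for A_10_P030866 and -1.70 for A_10_P179668. How far cRNA of one copy binds the other copy's probe was not tested.

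**Figure D2:**
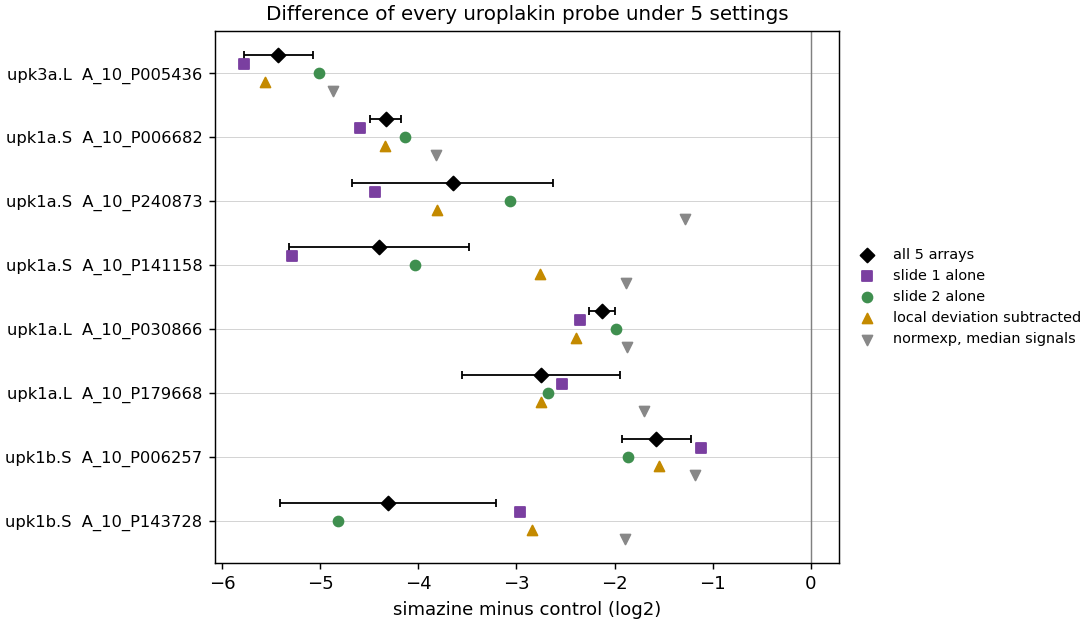
Difference of each uroplakin probe (simazine minus control, log2) from all 5 arrays (diamond, bar = SE), from each slide alone, with local deviation subtracted and with normexp background correction of the median signals. All 40 points lie below 0, which groups that do not overlap fixed in advance for the all-array and single-slide points. The probes of upk1a.S and upk1b.S in distorted areas move most between settings.

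The differences were -5.78 to -1.12 within slide 1 and -5.02 to -1.87 within slide 2. As the groups did not overlap for any probe, their sign within each slide was fixed in advance and adds no support. Control 1 read above control 2 on 6 of the 8 probes, by up to 0.92 for upk3a.L. Of the 40 member values, 7 came from marked spots, 6 of them on slide 1. Among the 5 member probes outside distorted areas, the brightest probes of upk3a and upk1a passed an adjusted p of 0.05 in the fit over all probes (limma), and the upk1b.S probe and both upk1a.L probes did not. Over all 26995 probes 0.385% were called lower and 0.0148% higher. With marked spots left out and no position filter, 0.00314% of probes were called, and 0 of the 8 member probes was among them (limma). The members were picked on this contrast, so these calls add nothing to the values above.

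None of the other tetraspanins measured, or of the genes of uroplakin traffic, passed the test. Over all probes of the fit 0.385% were called lower and 0.0148% higher, so no call in lists this short is near that share. Of 20 measured tetraspanins other than uroplakins, 0 passed with limma adjusted over all probes, and 0 had an unadjusted p under 0.05. Their median difference was -0.03, where that of all 6894 named genes measured was -0.00114. The brightest were cd63, a tetraspanin of late endosomes, at -0.02 (SE 0.321), and tspan3 at -0.32 (SE 0.550). Here and below, the SE of list genes are those of limma, which draws each spread towards that of all probes. Those of the uroplakin probes come from their own spread within groups, so the sizes of the SE are not comparable. Of 8 measured genes of vesicle traffic that carries uroplakins to the bladder surface in mammals, 0 passed (limma) and 0 reached an unadjusted p under 0.05, with a median of 0.09. The 2 brightest of these were rab27b, a small GTPase of vesicle transport, at -0.13 (SE 0.545), and vamp8, a fusion protein of vesicles, at 0.08 (SE 0.294).

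Of 29 measured genes of the signalling that follows sperm contact in eggs, 1 fell and 0 rose, with 3 at an unadjusted p under 0.05 (limma) and a median of -0.06. The share called lower over all probes of the fit was 0.385%. The gene that fell was ovch1, which encodes an ovochymase, a secreted protease (log2 -2.71, SE 0.305, adjusted p = 0.0486, limma). Its levels were -4.53, -4.29 and -4.78 on simazine 1, 2 and 3, against -1.70 and -1.95 on control 1 and 2. Values for genes of the steps around uroplakin 3a in the egg were 0.29 (SE 0.399) for src and -0.06 (SE 0.297) for fyn, kinases of the Src family, and -0.36 (SE 0.561) for plcg1, a phospholipase below Src. They were -0.36 (SE 0.328) for ctsb, cathepsin B, a protease. Those 4 did not pass, and they were singled out after their values were seen. Of the genes with an unadjusted p under 0.05, mos, a kinase of egg arrest, was at -1.66 (SE 0.311) and did not pass the adjusted test.

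Many oocyte genes fell in the same testes. Of 24 measured oocyte markers, 11 fell, 0 rose and 13 did not pass (limma, 15 at an unadjusted p under 0.05), and the list median was -3.33. Over all probes of the fit 0.385% were called lower. The list was chosen with earlier results of these data known, so setting its calls beside that share is not an independent test. The brightest of the 24 were ybx2 at 0.02 (SE 0.368), dazl at -0.38 (SE 0.595) and ccnb1.2 at -0.36 (SE 0.547), which did not pass. The largest difference was that of the maternal POU factor pou5f3.3 (-6.01, SE 0.303, adjusted p = 0.00981, limma). Its levels were -3.86, -3.34 and -3.54 on simazine 1, 2 and 3, against 2.45 and 2.40 on control 1 and 2. Egg envelope genes among those that fell were zp4 (-5.98, SE 0.651) and zpax (-5.03, SE 0.341, with 1 simazine array well above background). The connexin gene cx38 was at -5.73 (SE 0.569), the nuclear import gene kpna7 at -5.65 (SE 0.395) and h1-8, the oocyte linker histone, at -5.44 (SE 0.332). The kinase gene wee2 was at -4.92 (SE 0.523), 42sp50, an elongation factor of oocyte storage particles, at -4.66 (SE 0.400), zar1, a maternal RNA-binding protein gene, at -4.25 (SE 0.395) and the forkhead gene foxr1 at -3.84 (SE 0.414). Adjusted p values of the 10 genes named here as fallen ran up to 0.0444 (limma). With slide as a block zp4 lost its call (adjusted p = 0.0526, limma). The median was -3.77 within slide 1 and -2.94 within slide 2. The summed level of the 27 oocyte genes on the array was 158 to 304 in simazine testes and 310 to 345 in control testes, in multiples of the 75th percentile. That sum is weighted to bright genes such as ybx2, dazl and ccnb1.2, which did not pass. The mean log2 level of the 27 genes was -1.48 to -1.20 in simazine testes and 1.18 to 1.34 in control testes. On control 1 and control 2 all 27 were well above background, and on the simazine arrays 26 or 27 were. The part of oocyte RNA in the uroplakin values was not tested.

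Of 26 measured genes of epithelium and urothelium, 3 fell, 0 rose and 23 did not pass (limma). They were the tight junction claudin cldn6.1 (-6.74, SE 0.588, adjusted p = 0.0263, limma), cldn6.2, its neighbour in name and kind (-4.41, SE 0.291), and prss8, a membrane-bound protease of epithelia (-3.27, SE 0.306). Over all probes of the fit 0.385% were called lower and 0.0148% higher. This list was also chosen with earlier results of these data known, so its calls are not an independent test. The list median was -0.28, and it was 0.06 within slide 1 and -0.37 within slide 2. In 8 of the 26 genes all simazine arrays lay below both controls, where 6.85% of all probes in the fit did so. In 3 of the 26 all simazine arrays lay above both controls, and the share of all probes that did so was not counted. Of the 26 genes, 5 had an unadjusted p under 0.05 (limma). The 2 of these 5 that did not pass the adjusted test were epcam, a cell adhesion protein, at -1.02 (SE 0.335), and the claudin gene cldn4 at -1.18 (SE 0.321). The 5 keratins measured lay between -0.58 and 0.23, and 0 of them had an unadjusted p under 0.05 (limma). The mean log2 level of the 30 list genes on the array was -1.07 to -0.98 in simazine testes and -0.37 on both control arrays. Their summed level was 72.5 to 177 in simazine testes and 161 to 217 in control testes, and 2 of them were well above background on no array. The part of epithelial tissue in the uroplakin values was not tested.

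The lists of mesonephros, blood, sperm, and Sertoli and Leydig cell genes had medians of 0.07 to 0.28. At the shares called over all probes of the fit, 0.385% lower and 0.0148% higher, lists this short would hold few or no calls. None of 9 measured genes of the mesonephros, the frog kidney, passed (limma, 1 at an unadjusted p under 0.05), and the median was 0.09. The brightest, slc3a1, an amino acid transporter subunit, was at -0.14 (SE 0.321), and slc5a2, a glucose transporter, at 0.09 (SE 0.305). None of 10 Sertoli and Leydig cell genes passed (limma, 0 at an unadjusted p under 0.05; median 0.08), with sox9 at 0.17 (SE 0.422) and dmrt1 at 0.37 (SE 0.307), both factors of testis formation. None of 8 blood genes passed (limma, 0 at an unadjusted p under 0.05; median 0.07), with the globin hbg1 at 0.21 (SE 0.294) and cd74, the invariant chain of antigen-presenting cells, at 0.32 (SE 0.380). Of 9 sperm genes 1 fell, ccna1, cyclin A1, which in Xenopus is also a maternal cyclin of eggs (-3.08, SE 0.326, adjusted p = 0.0423, limma), and the median was 0.28. Of these 9, 2 had an unadjusted p under 0.05, and the other was zpbp2, a zona pellucida binding protein gene, at 1.27 (SE 0.314), which did not pass the adjusted test.

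**Figure D3:**
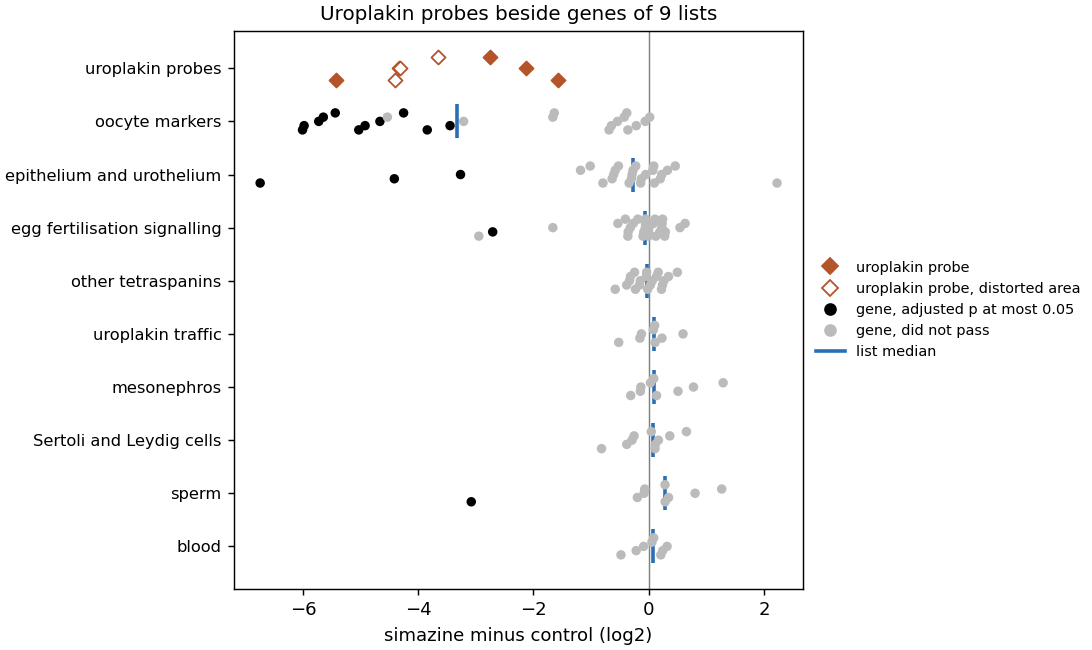
Difference (simazine minus control, log2) of the 8 uroplakin probes (diamonds, open in distorted areas) and of the measured genes of 9 lists (1 brightest probe a gene), black where the adjusted p was at most 0.05; blue bars are list medians. The oocyte list has its median at -3.33, and the medians of the other 8 lists lie between -0.28 and 0.28.

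All list calls above depend on which arrays enter the fit. Without control 1, control 2, simazine 1 or simazine 3, 0 of 26995 probes were called by limma. Unadjusted p values under 0.05 numbered 724 to 819 in those fits, and 1038 with all 5 arrays, which gave 108 calls. Without simazine 2, 53 passed. With marked spots left out and no position filter, 1 of 31882 probes passed, on 2709 at an unadjusted p under 0.05. None of the listed genes tested in that fit passed by its brightest probe. Not all were tested there: 21 of 27 oocyte genes and 17 of 30 genes of epithelium and urothelium were. With slide as a block 258 passed, or 0.956%, and of the 16 list genes called above 15 kept their call, zp4 being the exception.

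The genes most like each uroplakin across the 5 arrays were found among 6609 other named genes by the root mean square difference between profiles, each centred on its own mean. Nearest to upk3a were hba-l5, a globin by its symbol (0.152 log2 units), btg5.1 of the BTG family (0.188), the histone gene h2ac1 (0.206), sox3, a SOX transcription factor (0.223), and the homeobox gene with the symbol not (0.287). Their own differences lay between -5.50 and -4.92. The globin-named hba-l5 stood at -3.44, -3.26 and -3.64 on simazine 1, 2 and 3, against 2.16 and 1.34 on control 1 and 2, while the listed blood globin hbg1 was at 7.17, 6.98 and 7.18 on simazine 1, 2 and 3, against 6.69 and 7.10 on control 1 and 2.

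Nearest to upk1a, by its upk1a.S probe, were gpnmb, a membrane glycoprotein gene (0.163), cldn6.2 (0.223), the egg envelope gene zpax (0.366), map1lc3c of the autophagy-related LC3 family (0.396) and not (0.401). Of these, gpnmb stood at -1.85, -1.74 and -1.77 on simazine 1, 2 and 3, against 2.86 and 2.69 on control 1 and 2. Nearest to upk1b were insrr, an insulin receptor-related kinase gene (0.238), p2ry12, a purine receptor gene (0.258), the TALE homeobox gene tgif2 (0.264), mustn1 (0.270) and rbpms2, an RNA-binding protein gene (0.273), with differences between -1.90 and -1.24. Of these, insrr and p2ry12 were dim. On simazine 1 and 3, insrr stood at -7.96 and -7.95 and p2ry12 at -9.06 and -8.71. These levels lie below the lowest signal well above background on those arrays. The upk1a and upk3a profiles were 0.592 apart, and upk1b was 1.39 from upk1a and 1.94 from upk3a. The closeness of profiles was measured over 5 arrays that share the same group difference, and it carries no test.

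**Figure D4:**
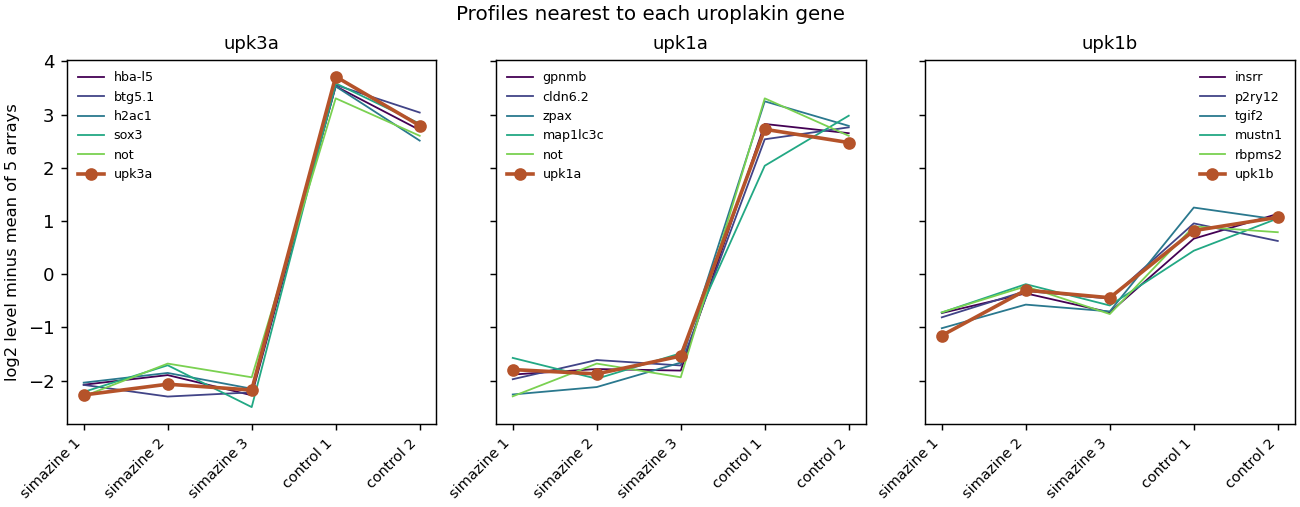
Profiles of upk3a, upk1a and upk1b (orange, brightest probe) and of the 5 nearest genes of each, as log2 level minus the gene's mean over the 5 arrays, simazine arrays left of control arrays. The step between groups is larger for upk3a and upk1a (differences of -5.42 and -4.33) than for upk1b (-1.57).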

How the data were processed

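The authors deposited 5 scanner tables with linear intensity values, written by version 10.7.3.1 of Agilent Feature Extraction, per the file headers. Their processed signal is background-subtracted, and corrected for a multiplicative trend on slide 2 alone. A further deposited table, with log2 values of 27228 probes, was found to hold the same processed signals on the log2 scale, shifted by a constant on each array whose origin is unknown. Column medians were 0.958, 1.02 and 0.949 for simazine 1 to 3 and 1.06 and 0.951 for control 1 and 2. The sources used here name no genome build. Probes were named through RefSeq accessions (10012 of 36331 matched).

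Levels are log2 processed signal minus log2 of the array's 75th percentile over gene spots, with spots of 1 probe averaged and marked spots kept. The fit over all probes used limma 3.58.1 in R 4.3.3 (lmFit, eBayes, two-sided, Benjamini-Hochberg) on probes well above background on at least 2 arrays. It left out spots where the median deviation over 5 rows and 9 columns passed 0.5 on any array. It was checked on simulated data. The members, lists and filters were chosen with earlier results of these data known. Named were all member probes, list genes past the threshold (at most 10 a list) or else the 2 brightest, and the 5 nearest profiles. Normexp, planned on spot signals, used median signals with an offset of 50. Alternatives covered marked spots, background correction, scaling, filters, slide, weights and each array left out.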

Additional observations from a re-analysis of the deposited data

How the results depend on the processing

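The differences of upk1a, upk1b and upk3a (brightest probes, simazine minus control, log2) were below 0 in all 15 alternatives run for each. Many of these could not change the sign. As the groups did not overlap, it was fixed for each slide, slide as a block, marked spots or any array left out, and the mean of all probes. Median scaling and the deposited log2 table only shift each array by a constant. The brightest upk1a and upk1b probes had no marked spots, and upk3a has no other probe among those that could be named. The count thus does not measure robustness. Normexp, which moved the median difference of all tested probes to 0.21, where it was 0.03 before, gave -3.82 for upk1a, -1.18 for upk1b and -4.87 for upk3a. Slide 1 alone gave -4.60 for upk1a and -1.12 for upk1b, and slide 2 alone gave -4.14 for upk1a and -5.02 for upk3a. The mean of all probes of a gene gave -3.45 for upk1a and -2.94 for upk1b, which take in the dim probes of distorted areas. Leaving out 1 array gave -4.46 to -4.21 for upk1a, -1.74 to -1.31 for upk1b and -5.88 to -4.96 for upk3a. Subtracting the local deviation was an alternative chosen after seeing the data. The number of probes called over all (108) was 1 with marked spots left out and no position filter, 372 with no position filter (244 lower and 128 higher), 43 with no filter on dim probes, 17 with normexp, 258 with slide as a block and 0 on slide 2 alone (limma, 1677 at an unadjusted p under 0.05). Leaving out 1 array gave 0 to 53, and the cause was not tested. No paired analysis was possible because the labels give no replicate numbers shared between groups, and the numbers used here only follow the order of the samples. Slide was used as the block instead. Signal over background limits 7 of the 24 simazine member values.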
